A study of Mus musculus with 6 samples.

Results

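The Trim30 cluster is a run of related TRIM (tripartite motif) genes on mouse chromosome 7, of which 7 are described here: Trim30a, Trim30b, Trim30c, Trim30d, Trim12a, Trim12c and Trim34a. They were taken by gene name from a table of read counts for 53801 genes of the adult mouse brain, around Trim30b, whose count was lower in brains lacking Bahd1. The members were thus chosen by the difference between the genotypes that is described here, and for these 7 genes it is given as a description, with no test. RNA-seq had been made from a frozen brain hemisphere of each of 3 Bahd1-WT (Bahd1+/+) and 3 Bahd1-KO (Bahd1-/-) mice of the C57BL/6 strain, labelled as about 70 weeks old. The labels name no treatment other than the knockout. According to the study its mice were male, and the Bahd1-KO mice, which came from crosses of heterozygotes, lacked the gene in every tissue throughout life and often died around birth. The Bahd1-KO mice measured are therefore survivors, and effects of the loss in the brain cannot be told apart from effects that began in other tissues. BAHD1 is a protein of gene-silencing complexes on chromatin. Bahd1 had 844 to 1383 counts in the Bahd1-WT libraries and 0 to 14 in the Bahd1-KO libraries.

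TRIM proteins carry a RING domain with ubiquitin ligase activity, a B-box and a coiled coil, and many end in a SPRY domain that binds the target. Many of them are made in response to interferon: the cytokine binds its receptor, kinases at the receptor activate transcription factors, and these bind a short DNA element, the interferon-stimulated response element (ISRE), at the promoters of the induced genes. TRIM30A, the best known protein of this cluster, is induced in macrophages when Toll-like receptors are stimulated and restrains the route from these receptors to NF-kB by driving the degradation of the adaptors TAB2 and TAB3, and it also limits the NLRP3 inflammasome. TRIM12A and TRIM12C are mouse relatives of primate TRIM5, which blocks incoming retroviruses, and TRIM34A is the relative of the interferon-induced primate TRIM34. In the brain, genes of this kind are known mostly from microglia and other macrophages.

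The promoters are shown first because the ISRE is what the interferon response acts on, and because they show how the members are related. In the RefSeq promoter windows of build GRCm38.p6, each of 300 bases from 250 bases upstream of a transcription start to 50 bases after it, 8 windows belonged to the 7 members, with 2 for Trim30a. The core of the ISRE was searched as GAAANNGAAA on both strands. It was found in 6 of these windows, belonging to 5 members (Trim34a, Trim12a, Trim12c, Trim30a and Trim30d), and in 3.44% of all 32851 promoter windows. Every one of these matches lay on the strand opposite to the gene, and they began at positions -41 to 10, counted from 0 at the transcription start. The 4 windows below are written from the upstream end on the strand of the gene, which is the minus strand for each, with the match, read here as its reverse complement, in capitals. Trim30a, at its upstream start, and Trim30d show the closest pair, Trim12c the same core in another branch of the family, and Trim30b the member with the largest fold change and no match.
Trim30a (chr7:104465144-104465443): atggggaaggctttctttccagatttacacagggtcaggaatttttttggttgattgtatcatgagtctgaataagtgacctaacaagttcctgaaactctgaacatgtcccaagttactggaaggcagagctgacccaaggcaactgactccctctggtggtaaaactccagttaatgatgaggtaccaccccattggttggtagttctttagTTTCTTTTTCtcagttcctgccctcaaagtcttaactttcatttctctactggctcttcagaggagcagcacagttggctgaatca
Trim30d (chr7:104507800-104508099): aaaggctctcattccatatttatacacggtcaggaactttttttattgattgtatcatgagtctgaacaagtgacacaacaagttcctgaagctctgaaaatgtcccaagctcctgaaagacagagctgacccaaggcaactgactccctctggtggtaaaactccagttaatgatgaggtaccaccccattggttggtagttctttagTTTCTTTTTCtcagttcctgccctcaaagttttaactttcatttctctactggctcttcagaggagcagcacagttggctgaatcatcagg
Trim12c (chr7:104353300-104353599): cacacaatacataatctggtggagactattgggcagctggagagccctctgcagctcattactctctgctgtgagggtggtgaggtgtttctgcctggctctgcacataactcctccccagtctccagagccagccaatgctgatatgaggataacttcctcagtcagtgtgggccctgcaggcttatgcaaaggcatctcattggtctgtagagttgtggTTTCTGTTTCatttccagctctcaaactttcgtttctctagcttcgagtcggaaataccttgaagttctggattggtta
Trim30b (chr7:104358597-104358896): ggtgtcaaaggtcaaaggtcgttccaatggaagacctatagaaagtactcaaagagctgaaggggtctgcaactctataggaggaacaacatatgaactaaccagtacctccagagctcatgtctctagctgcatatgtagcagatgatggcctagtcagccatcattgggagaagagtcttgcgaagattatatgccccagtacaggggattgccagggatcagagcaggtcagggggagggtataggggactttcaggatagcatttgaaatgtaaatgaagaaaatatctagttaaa

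The windows of Trim30a and Trim30d were identical at 276 of 300 bases (92%) and both held the match GAAAAAGAAA. Those of Trim12a and Trim12c were identical at 82.3% of bases and held GAAACAGAAA, and Trim34a held GAAACTGAAA. The window of Trim30b was identical to those of the other members at 46.3% to 51.3% of bases and had no ISRE core, nor had that of Trim30c. A second element, the GAS site of the interferon gamma response, searched as TTCNNNGAA, occurred in the window of Trim30c alone among the members, as TTCTTAGAA, and in 8.3% of all windows. The RefSeq start of Trim30b lies inside the gene as GENCODE annotates it (chr7:104355382-104369884), so a start further upstream was not searched. The bases just after the start occurred in a GENCODE transcript of the gene for 6 of the 8 windows and in none for those of Trim12a and of Trim30a at its downstream start, so both of these starts, and the positions of their matches, rest on RefSeq alone. A match or its absence describes only the letters of these windows.

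Along the chromosome the members spanned 263.4 kb, from Trim34a to Trim30d, in the GRCm38 annotation (GENCODE M21). Trim34a lies on the plus strand at chr7:104244457-104262234. The other 6 lie on the minus strand, in the order Trim12a (chr7:104299894-104315466), Trim12c (chr7:104338754-104353362), Trim30b, Trim30c (chr7:104382065-104400837), Trim30a (chr7:104409025-104465193) and Trim30d (chr7:104470014-104507849). Between the outermost members the annotation holds 16 genes, of which 9 are not members, and only 3 of those 9 had enough counts to be tested (Trim5, Gm15133 and Gm16464). Within 100 kb on either side lie 15 further genes, of which 3 were tested. Olfactory receptor genes make up 9 of the genes in this whole window. Within the family, the coding sequences of Trim30a and Trim30d were identical at 90.2% of aligned bases, those of Trim30a and Trim30c at 83.2%, and those of Trim12a and Trim12c at 96.3%. Trim30a and Trim34a shared 61.4%. The annotated coding sequence of Trim30b has 612 bases, against 1491 in Trim30a and 1494 in Trim30d.

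Such likeness bears on which gene a read is given to. The study's methods describe single reads of 65 bases and its supplement a paired run with reads of 50 and 34 bases, and which of these gave the deposited counts is not settled. Of all 65-base stretches of their annotated transcripts, 94.7% in Trim30a, 99.3% in Trim30b, 100% in Trim30c, 94% in Trim30d and 92.8% in Trim12a occurred in no other gene's transcripts. For Trim12c it was 76.9%, with most of the shared stretches found in Trim5. For Trim34a it was 47.1% when both strands were searched, the shared ones being found in Trim34b and in Gm47248, a gene annotated antisense to Trim34a, and 66.6% when only the same strand was. The supplement states counting by strand, under which stretches shared with Gm47248 would not be split, but whether the setting matched the libraries was not tested. With stretches of 34 bases on both strands, the lowest shares were 33% in Trim34a and 54.2% in Trim12c, and the other 5 members had 85% to 96.2%. Counts of Trim34a and Trim12c, and the fold changes that follow from them, are therefore uncertain where the counting dropped or split shared reads. Trim34b had 0 to 4 counts per library and Gm47248 had 0 in each.

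The libraries held 42297150 (Bahd1-KO replicate 1) to 93557948 counts (Bahd1-KO replicate 2), so that 3 counts, taken here as the lowest level a library can show, correspond to 0.0315 to 0.0690 CPM (counts scaled to a common library size, with library sizes set by the TMM method). All 7 members passed the filter of at least 10 counts summed over the 6 libraries that left 23975 genes. Markers of neurons, astrocytes, oligodendrocytes, microglia and endothelial cells were present in every library, as the brain label requires. Markers of lung and airway summed to 115 CPM in Bahd1-WT replicate 1 and 27.2 CPM in Bahd1-WT replicate 2, against 0.575 to 2.44 CPM in the other 4 libraries. Fold changes of the members without these 2 libraries are given beside the others.

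Trim30a was the most strongly counted member. It had 7.04, 8.60 and 5.55 CPM in Bahd1-WT replicates 1, 2 and 3, and 3.75, 2.33 and 3.52 CPM in Bahd1-KO replicates 1, 2 and 3. Every Bahd1-KO library lay below every Bahd1-WT library. The mean was 7.06 ± 1.53 CPM in Bahd1-WT (SD, n = 3) and 3.20 ± 0.761 CPM in Bahd1-KO (SD, n = 3), which is 45.3% of the Bahd1-WT mean, and the fitted log2 fold change was -1.15 (SE 0.27). Without Bahd1-WT replicates 1 and 2 it was -0.80 (SE 0.45).

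Trim30d, the nearest relative of Trim30a by coding sequence and by promoter, was lower in Bahd1-KO by a smaller factor. Its levels were 3.57, 4.52 and 3.29 CPM in Bahd1-WT and 2.23, 1.37 and 2.82 CPM in Bahd1-KO. The genotypes did not overlap here either, and the lowest value was again that of Bahd1-KO replicate 2. The means were 3.79 ± 0.645 and 2.14 ± 0.730 CPM (SD, n = 3 each), with a log2 fold change of -0.83 (SE 0.30).

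Trim30b and Trim30c, the members with little RNA in this tissue, had the largest fold changes and the fewest counts. For Trim30b the Bahd1-WT libraries held 32, 20 and 35 reads, in the order of their replicate numbers, and the Bahd1-KO libraries 2, 5 and 5. In CPM these were 0.350, 0.324 and 0.477 against 0.0460, 0.0525 and 0.0864. The lowest Bahd1-WT library therefore stood well above the highest Bahd1-KO library, while Bahd1-KO replicate 1 was under the level of 3 counts. Its mean in Bahd1-KO, 0.0616 ± 0.0217 CPM (SD, n = 3), was 16.1% of that in Bahd1-WT, 0.384 ± 0.0821 CPM (SD, n = 3), and the log2 fold change was -2.61 (SE 0.42). Without Bahd1-WT replicates 1 and 2 it was -2.93 (SE 0.61).

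For Trim30c the counts were 10, 10 and 7 among the Bahd1-WT mice and 0, 4 and 4 among the Bahd1-KO mice. The genotypes did not overlap in CPM (0.0954 to 0.162 against 0 to 0.0691), but with so few counts the log2 fold change of -1.56 had an SE of 0.72, the widest of the 7. In Bahd1-KO replicate 1 the count of 0 allows a level of up to 0.0690 CPM, counting error only.

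Trim12a and Trim12c, the relatives of primate TRIM5, differed least between the genotypes. Trim12a had 4.17, 3.19 and 3.29 CPM in Bahd1-WT and 2.74, 2.18 and 2.59 CPM in Bahd1-KO, a log2 fold change of -0.51 (SE 0.23). Its groups were separate. Trim12c had 4.38, 4.08 and 3.45 CPM in Bahd1-WT and 3.56, 2.03 and 2.85 CPM in Bahd1-KO, a log2 fold change of -0.50 (SE 0.26). It was the only member whose groups overlapped, since Bahd1-KO replicate 1 was above Bahd1-WT replicate 3.

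Trim34a, the member on the plus strand at the other end of the cluster, varied least among the Bahd1-WT mice relative to its mean, with 2.79, 3.01 and 3.01 CPM. The Bahd1-KO mice had 2.39, 1.69 and 1.62 CPM. All 3 lay below the lowest Bahd1-WT value, and the log2 fold change was -0.63 (SE 0.24).

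**Figure D1:**
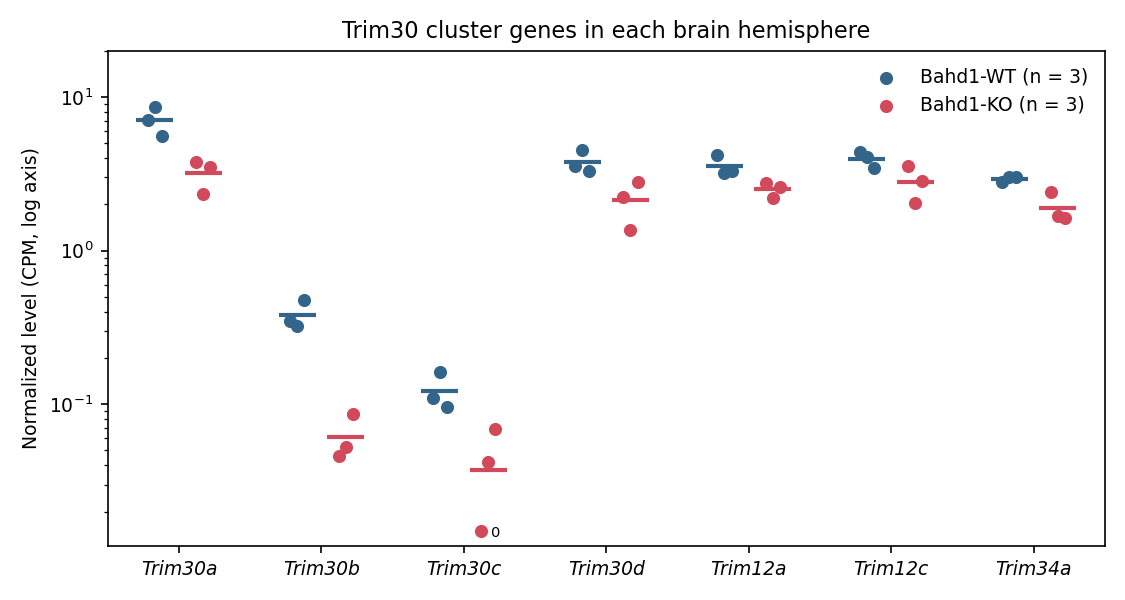
Level of each of the 7 Trim30 cluster genes in each library, in CPM on a log axis, with 1 point per library and a line at the mean of each genotype. The Trim30c count of 0 in Bahd1-KO replicate 1 is drawn at the foot of the plot and marked 0. Only Trim12c has a Bahd1-KO point above a Bahd1-WT point, and Trim30b and Trim30c lie far below the other 5 genes in both genotypes.

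All 7 members were lower in Bahd1-KO, against 53.4% of all genes tested. In 6 of the 7 every Bahd1-KO library was below every Bahd1-WT library, against 19.3% of all genes tested, and 3 of the 7 (Trim30a, Trim30b and Trim30c) were lower by at least 2-fold, against 7.19%. Because the members were picked with this contrast in view, nothing is read from these counts. Without Bahd1-WT replicates 1 and 2, the log2 fold changes of the remaining members were -1.23 in Trim30c, -0.63 in Trim30d, -0.40 in Trim12a, -0.30 in Trim12c and -0.67 in Trim34a, each with the single Bahd1-WT library left. The median of the 7 in all libraries was -0.83, beside -0.06 over all genes tested. In whole brain tissue, fewer cells that use a gene and less RNA of it per cell cannot be told apart.

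**Figure D2:**
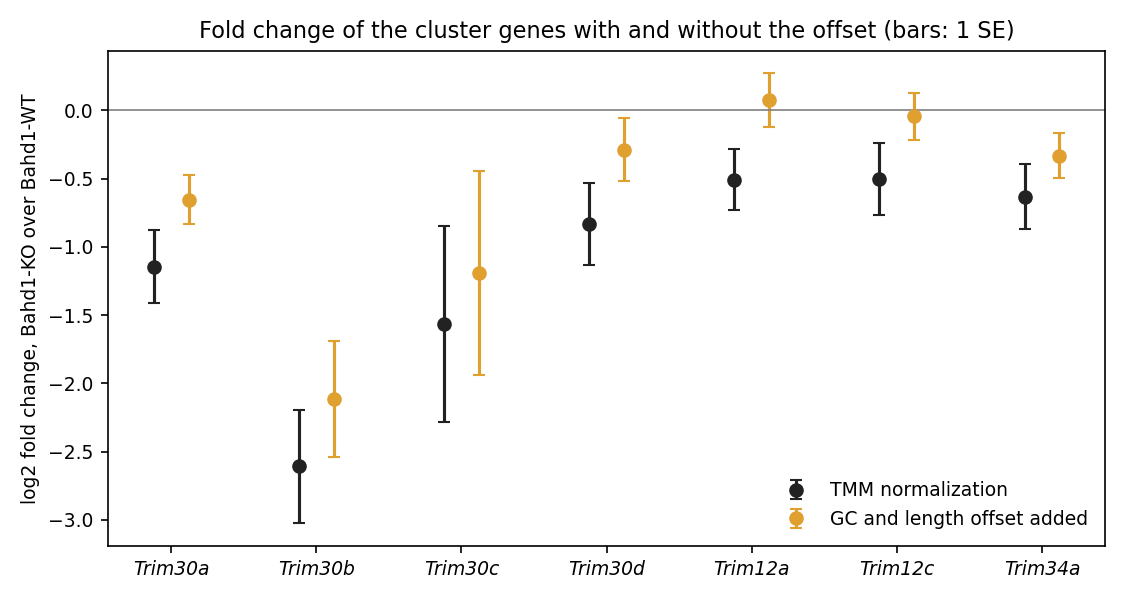
Log2 fold change, Bahd1-KO over Bahd1-WT, of each member with its standard error, as fitted with genotype alone and after an offset for GC content and transcript length in each library. Trim30b moves from -2.61 to -2.11, Trim12a moves from -0.51 to 0.073 and Trim12c from -0.50 to -0.045.

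The fold changes of the members moved when GC content and transcript length were taken into account together, and the members are AT-rich. GC content of the longest transcript ran from 39.1% in Trim12a to 44.3% in Trim34a, with a median of 41.0% in the members and 48.7% over all genes tested. With an offset for GC content and transcript length in each library, the log2 fold change was -0.65 in Trim30a, -2.11 in Trim30b, -1.19 in Trim30c, -0.29 in Trim30d, -0.33 in Trim34a, -0.045 in Trim12c and 0.073 in Trim12a. The offset thus turned the direction of Trim12a, left Trim12c close to 0, and brought the median of the 7 to -0.33. GC content and length were not separated, and their part in these differences was not tested beyond this offset.

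Per kilobase of exon, the members formed 2 tiers in Bahd1-WT. Trim30a led with 1.72 ± 0.371 CPM per kb (SD, n = 3), followed by Trim34a with 1.13, Trim12c with 1.06, Trim30d with 1.01 and Trim12a with 0.614 CPM per kb. Trim34a, Trim12c and Trim30d overlapped among the Bahd1-WT libraries on this scale, so their order is not resolved. Trim30c with 0.0712 and Trim30b with 0.0510 CPM per kb stood far below the rest and overlapped each other. In Bahd1-KO, Trim30a (0.778), Trim12c (0.752) and Trim34a (0.734 CPM per kb) were close together, and Trim30b was the lowest at 0.00819 CPM per kb.

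As shares of all cluster counts, which do not depend on the scaling of a library, Trim30a made up 31.4%, 36.0% and 29.0% in the Bahd1-WT libraries and 25.5%, 24.1% and 26.0% in the Bahd1-KO libraries. Its share was lower in all 3 Bahd1-KO mice. The share of Trim30b was 1.80 ± 0.605% in Bahd1-WT and 0.497 ± 0.167% in Bahd1-KO (SD, n = 3 each). Trim12c took 22.0 ± 1.88% in Bahd1-KO against 18.2 ± 1.25% in Bahd1-WT (SD, n = 3 each), without overlap, and Trim12a 20.1 ± 2.14% against 16.4 ± 2.72% (SD, n = 3 each), with overlapping libraries. Trim30d kept nearly the same share, 17.3 ± 1.49% and 16.7 ± 3.59% (SD, n = 3 each).

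**Figure D3:**
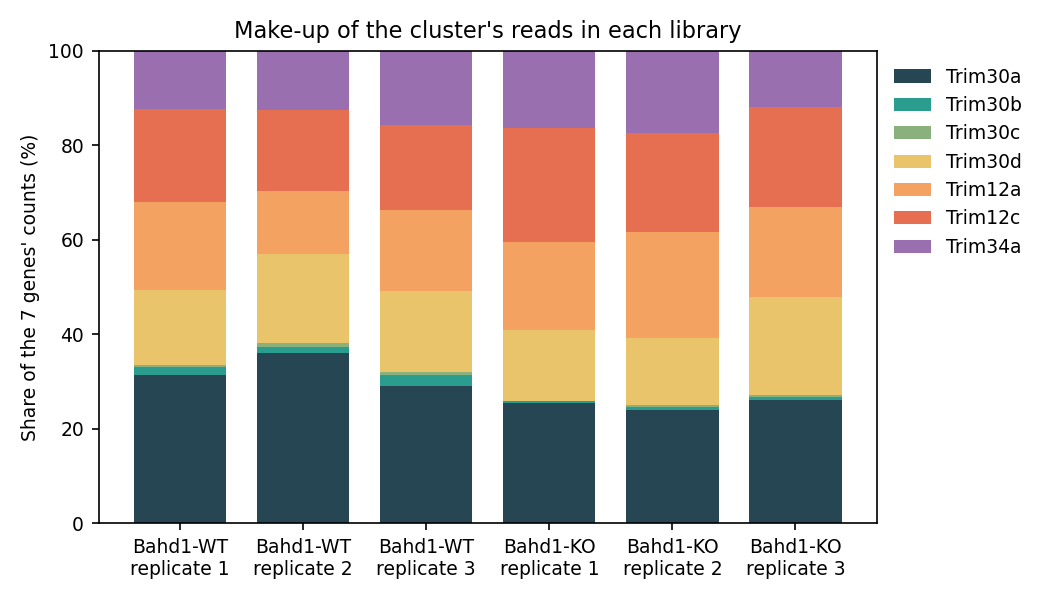
Share of each member in the summed counts of the 7 genes, in percent, with 1 stacked bar per library. Trim30a takes 29.0% to 36.0% in the Bahd1-WT libraries and 24.1% to 26.0% in the Bahd1-KO libraries.

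Summed over the 7 members, the level was 22.4, 23.9 and 19.2 CPM in Bahd1-WT and 14.7, 9.69 and 13.6 CPM in Bahd1-KO. The Bahd1-KO mean was 58.0% of the Bahd1-WT mean, and Bahd1-KO replicate 2 was the lowest library. Markers of the cells that are known to use these genes were compared in the same libraries. The 8 microglia markers summed to 325 to 372 CPM in Bahd1-WT and 289 to 346 CPM in Bahd1-KO, ranges that overlap, and the Bahd1-KO mean was 93.2% of the Bahd1-WT mean. Per 1000 CPM of microglia markers, the members summed to 60.2, 73.5 and 53.9 CPM in Bahd1-WT and 42.5, 33.5 and 39.3 CPM in Bahd1-KO, ranges that do not overlap. The members were chosen for their difference between these libraries, and the part of cell numbers in it was not tested.

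Marker sums of several other cell types also differed between the genotypes. The 4 astrocyte markers summed to 1692 to 1887 CPM in Bahd1-WT and 1463 to 1638 CPM in Bahd1-KO, without overlap, with 2 of the 4 lower and 2 higher by their fold changes. The 4 oligodendrocyte markers summed to 3447 to 3839 CPM in Bahd1-WT and 3742 to 6450 CPM in Bahd1-KO, the highest in Bahd1-KO replicate 2. The 4 markers of perivascular macrophages summed to 13.3 to 21.0 CPM in Bahd1-WT and 6.05 to 13.2 CPM in Bahd1-KO, and 3 of the 4 were lower in Bahd1-KO. The 6 neutrophil markers summed to 7.06 to 7.98 CPM in Bahd1-WT and 1.79 to 6.62 CPM in Bahd1-KO, with 3 of the 5 tested lower. Bahd1-KO replicate 2 was the lowest library for both sums, as it was for the members. Lymphocyte markers overlapped (0.421 to 0.765 and 0.345 to 0.812 CPM), and all 7 lung and airway markers were lower in Bahd1-KO. No marker in these lists was at 0 in all 6 libraries, and their part in the levels of the members was not tested.

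Other TRIM genes within the window were counted at low levels. Trim5, which lies between Trim34a and Trim12a and whose promoter also held GAAACAGAAA, had 0.721, 0.713 and 0.614 CPM in Bahd1-WT and 0.529, 0.284 and 0.363 CPM in Bahd1-KO. The log2 fold change of Trim5 was -0.83 (SE 0.31, adjusted p = 0.111), and its coding sequence was identical to that of Trim12c at 96.6% of bases, so the same reads can be uncertain. The pseudogene Trim30e-ps1, beyond Trim30d, was counted 53, 42 and 39 times in the Bahd1-WT libraries and 25, 26 and 13 times in the Bahd1-KO libraries. Scaled to CPM its groups overlapped, with means of 0.597 and 0.357 CPM and a log2 fold change of -0.78 (adjusted p = 0.191). With the offset for GC content and length its log2 fold change was -0.27. Trim6, on the other flank and without an ISRE core in its window, had 13, 20 and 18 counts against 13, 12 and 11, with groups that also overlapped in CPM, a log2 fold change of -0.25 that turned to 0.052 with the offset for GC content and length described above.

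**Figure D4:**
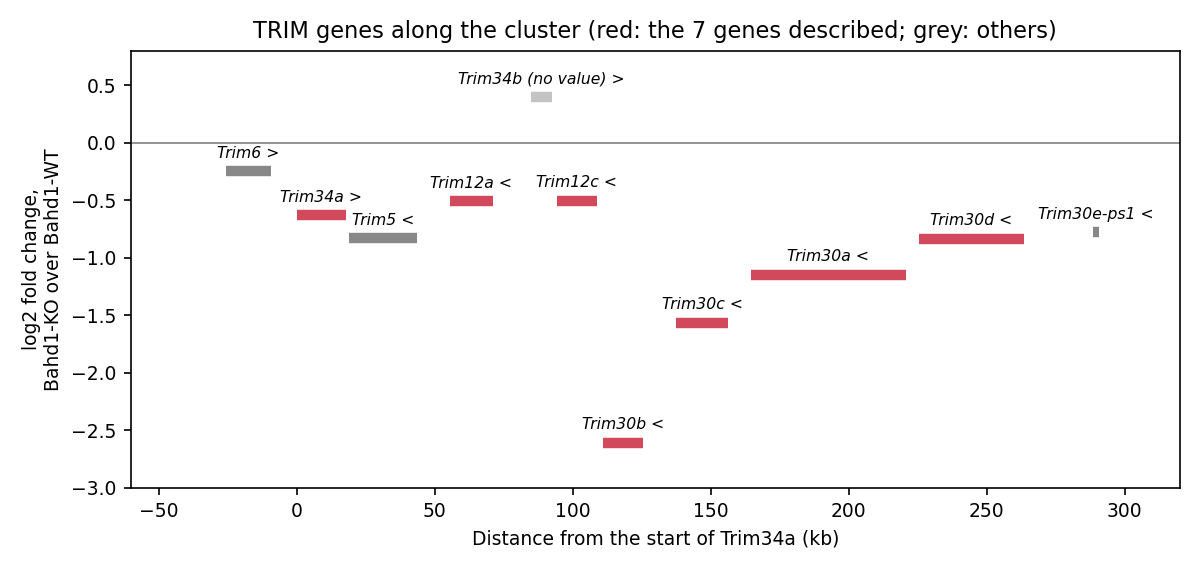
TRIM genes along the cluster, drawn to scale by distance from the start of Trim34a in kb, at the height of their log2 fold change, Bahd1-KO over Bahd1-WT, with > for the plus and < for the minus strand. Trim30b is lowest at -2.61 and lies between Trim12c at -0.50 and Trim30c at -1.56, while Trim34b, with 9 counts in all, was not tested and is drawn above the line without a value.

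The other TRIM genes of the genome were divided between both directions. Of 62 in the table, 52 were tested, and 23 were lower and 29 higher in Bahd1-KO, and the median was 0.02 on the log2 scale and -0.13 with the offset for GC content and length. By edgeR's quasi-likelihood test none of them passed an adjusted p under 0.05 with at least a 2-fold change. That rule called 2 of all 23975 genes (0.00834%), 1 of them lower (0.00417%), which was Bahd1 itself. With so few calls over all genes, a list without a call says little. At an unadjusted p under 0.05 there were 6 lower and 12 higher, against 12% of all genes lower, 19.9% higher and 31.8% in either direction, and DESeq2 without a prior called 5, each of them higher, against 11.5% of all genes called by that test in either direction and 10.5% called higher. The lowest p-values among those lower in Bahd1-KO belonged to Trim33 (log2 fold change -0.58, adjusted p = 0.0937), which controls SMAD signalling, to Trim13 (-0.56, adjusted p = 0.107), an endoplasmic reticulum ubiquitin ligase, and to Trim5. Among those higher they belonged to Trim54 (4.53, adjusted p = 0.0634), a muscle protein with at most 24 counts in a library, to Trim28 (1.18, adjusted p = 0.0634), a corepressor of KRAB zinc finger proteins, and to Trim47 (2.67, adjusted p = 0.0634). With the offset Trim28 turned to -0.11, and the others were closer to 0, at -0.21 for Trim33, -0.18 for Trim13, -0.35 for Trim5, 3.18 for Trim54 and 0.87 for Trim47.

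Fold changes of the other TRIM genes were also set beside their GC content, as a description with no test. The 8 other TRIM genes with a GC content no higher than that of Trim34a were lower in Bahd1-KO in 7 cases, and their median was -0.57 on the log2 scale. The 44 with a higher GC content were lower in 16 cases, and their median was 0.08. Among the 8, the lowest values were those of Trim5 and Trim30e-ps1 (-0.83 and -0.78), which lie within or beside the cluster, followed by Trim23 at -0.63.

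**Figure D5:**
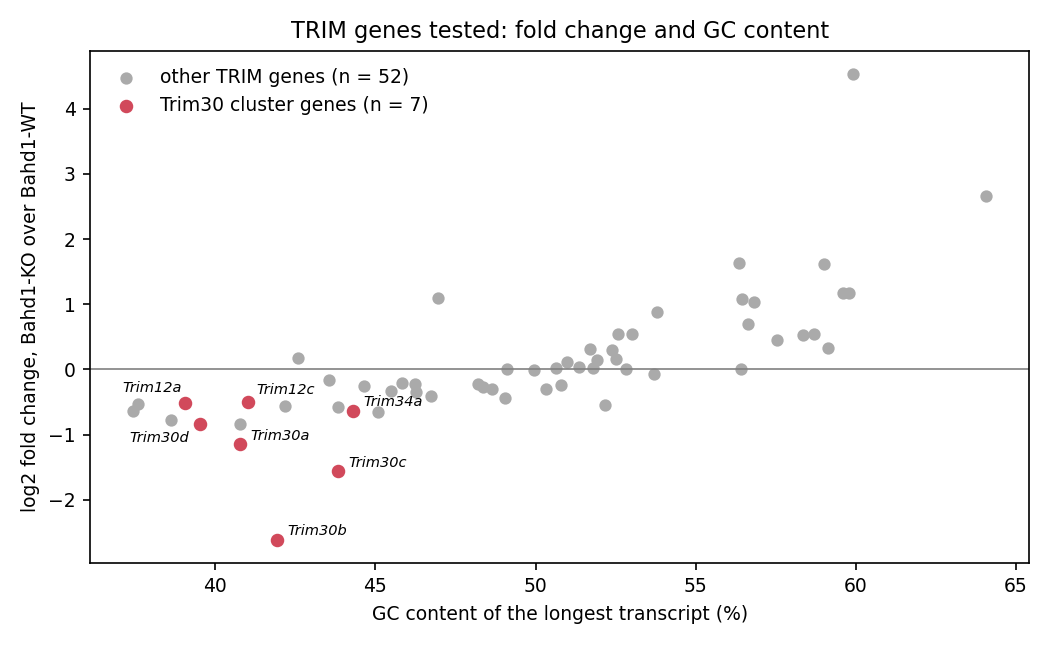
Log2 fold change, Bahd1-KO over Bahd1-WT, against the GC content of the longest transcript in percent for the TRIM genes tested, with the 7 members in red and the other 52 in grey. Fold changes tend to be higher at higher GC content. The lowest points are Trim30b (-2.61), the gene around which the members were chosen, and Trim30c (-1.56, SE 0.72). Trim30c had 35 counts over all libraries, and the distance of these points from the others was not tested.

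Genes of interferon production and signalling lay on both sides of 0. The list held 24 genes, all tested, of which 11 were lower and 13 higher in Bahd1-KO. Their median was 0.14 on the log2 scale and -0.07 with the offset. None was called by edgeR. At an unadjusted p under 0.05 there were 3 lower and 5 higher, near the 12% and 19.9% of all genes tested. Those with the lowest p were, in the lower direction, the RNA sensors Ifih1 (-0.64, adjusted p = 0.0935) and Ddx58 (-0.47, adjusted p = 0.139) and the kinase Jak2 (-0.49, adjusted p = 0.110). In the higher direction they were the kinase Tyk2 (1.10, adjusted p = 0.0727), the inhibitor Socs1 (1.90, adjusted p = 0.0907) and the transcription factor Irf5 (0.84, adjusted p = 0.0946). With the offset each of the 6 was closer to 0, and Tyk2 was at 0.090, Socs1 at 0.55 and Irf5 at 0.034. Socs1 had few counts, with 13, 5 and 3 in the Bahd1-WT libraries and 6, 57 and 14 in the Bahd1-KO libraries. Its groups overlapped in CPM.

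Of 26 other interferon-induced genes, 18 were lower and 8 higher, and the median of -0.44 on the log2 scale became -0.21 with the offset for GC content and length. None was called by edgeR, and 13 lower and 4 higher had an unadjusted p under 0.05, where all genes tested gave 12% and 19.9%. In 14 of the 26 every Bahd1-KO library was below every Bahd1-WT library, where all genes tested gave 19.3%. Ifi44 (-1.14, adjusted p = 0.0634), the antiviral enzyme gene Rsad2 (-0.87, adjusted p = 0.0688) and Ifit1 (-0.91, adjusted p = 0.0772), whose protein binds viral RNA, had the lowest p among those lower. The helicase gene Dhx58 (1.17, adjusted p = 0.0634), the RNA-editing enzyme gene Adar (0.72, adjusted p = 0.0647) and Bst2 (1.16, adjusted p = 0.0780), whose protein tethers budding viruses, had the lowest p among those higher. Over the 50 genes of both lists, DESeq2 without a prior called 6, of which 4 were higher, against 11.5% of all genes called by that test in either direction. With the offset the values were -0.60 for Ifi44, -0.52 for Rsad2, -0.55 for Ifit1, 0.58 for Dhx58, 0.25 for Adar and 0.19 for Bst2.

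The route on which TRIM30A acts was followed in 26 genes, from Toll-like receptors to NF-kB and the inflammasome. Of these 12 were lower and 14 higher, the median was 0.04 on the log2 scale, and edgeR called none. At an unadjusted p under 0.05 there were 5 lower and 3 higher, where all genes tested gave 12% and 19.9%, and DESeq2 without a prior called 2, both higher, against 10.5% of all genes called higher by that test. The kinase genes Chuk (-0.61, adjusted p = 0.0879) and Map3k7 (-0.48, adjusted p = 0.111) and the cytokine gene Il1b (-1.43, adjusted p = 0.0991) had the lowest p among those lower. The NF-kB subunit gene Rela (1.66, adjusted p = 0.0634), the adaptor gene Tab1 (1.60, adjusted p = 0.0679) and Myd88 (0.64, adjusted p = 0.116) had the lowest among those higher. Tab2 and Tab3, named here because their proteins are the known targets of TRIM30A, had log2 fold changes of -0.39 and -0.56. With the offset these were -0.32 and -0.10. Rela was at 0.28, Tab1 at 0.36, Myd88 at 0.13, Chuk at -0.15, Map3k7 at -0.21 and Il1b at -1.26. All of these values are of RNA, while TRIM30A acts on the TAB2 and TAB3 proteins, which were not measured.

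The genes whose level across the 6 libraries was most like the summed level of the members were Tceanc (Pearson's r = 0.998 on log2(CPM + 0.5)), Ercc5 (r = 0.998), Sltm, Tbp and Zc3h6. They lie outside the interferon lists. Of 14701 genes with a mean of at least 1 CPM, 1176 had an r of at least 0.95 with the members, so that this likeness is common in these libraries.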

How the data were processed

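RNA-seq of a brain hemisphere was compared between 3 Bahd1-WT and 3 Bahd1-KO mice, grouped by their labels. According to the methods, the authors trimmed reads with cutadapt 1.11, aligned them to GRCm38 and counted them on the exons of each gene with featureCounts 1.4.6-p3 (versions from the submitters' processing notes, which name STAR 2.5.0a, while the supplement also names Tophat2). The deposited values are whole-number counts, not normalized, for 53801 genes, and 0 columns came from other samples.

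The 23975 genes whose counts summed to 10 or more were fitted with edgeR 4.0.16 (TMM, quasi-likelihood test, genotype only, Benjamini-Hochberg adjustment) in R 4.3.3, and a call needed an adjusted p under 0.05 and at least 2-fold. The GC and length offset was a spline fitted in each library to 13251 genes. The members and lists were chosen with earlier results of these data known. Named were the members, TRIM genes within 100 kb, the 3 genes of lowest p in each direction of each list, and the 5 genes most like the members. Alternatives were DESeq2 1.42.0 with and without a prior, its size factors, total counts, other filters, leaving out each library, a replicate block, the offset, and, chosen after seeing the data, leaving out both Bahd1-WT libraries with lung markers. Shared stretches were sought in GENCODE M21 transcripts, and promoters came from RefSeq (GRCm38.p6), with windows for all 7 members. The scripts were tested on simulated data. Depth was 42297150 to 93557948 counts, and the floor of 3 counts covers counting error only.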

Additional observations from a re-analysis of the deposited data

How the results depend on the processing

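The log2 fold changes of Trim30a, Trim30b, Trim30c, Trim30d, Trim12c and Trim34a stayed below 0 under each alternative that gave a value, and that of Trim12a under 14 of 16. With the GC and length offset they were 0.073 for Trim12a, -0.045 for Trim12c, -0.65 for Trim30a, -2.11 for Trim30b, -1.19 for Trim30c, -0.29 for Trim30d and -0.33 for Trim34a. Same-numbered mice did not deviate together (correlations of -0.557, -0.602 and -0.128), and differently numbered ones gave -0.0718 to 0.582. Taken around means of 3 libraries, these correlations cannot settle whether any samples were paired. With the offset and the replicate block the values were 0.080, -0.036, -0.65, -2.12, -1.31, -0.32 and -0.33 in the same order, and with the replicate block alone Trim30c was at -1.69, 7 genes were called, and 9 with block and offset. DESeq2's normal prior gave -2.08 for Trim30b and -1.02 for Trim30c. Leaving out 1 library at a time gave -0.58 to -0.38 for Trim12a, -0.68 to -0.31 for Trim12c, -1.29 to -0.96 for Trim30a, -2.88 to -2.43 for Trim30b, -2.08 to -1.12 for Trim30c, -1.08 to -0.58 for Trim30d and -0.80 to -0.53 for Trim34a. Without Bahd1-WT replicates 1 and 2, a fit in which the lone Bahd1-WT library is assumed to vary like the others, Trim30a was at -0.80, Trim30b at -2.93, Trim30c at -1.23, and 1 gene was called. A filter of 1 CPM in 3 samples left no value for Trim30b and Trim30c.

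The count of all genes called, 2 by edgeR, was 2007 with total counts, 2761 by DESeq2 without a prior, 2522 with its normal prior, 2770 with no filter beyond 1 count, 4 with the offset, and 0 to 3988 with 1 library left out, the highest without Bahd1-KO replicate 1. In the order total counts, DESeq2 without a prior, with the prior, and no filter, the calls were 5, 5, 4 and 6 among the other TRIM genes (0 to 11 with 1 library left out), 2, 6, 5 and 6 in the interferon lists (0 to 9), and 1, 2, 2 and 2 in the TRIM30A list (0 to 3), and the highest of each range was again without Bahd1-KO replicate 1. With 65-base stretches replaced by 50-base ones, 40.3% of Trim34a and 66.3% of Trim12c were unique, and with 34-base ones, a length added after seeing the data, 33% and 54.2%. The cause of these differences was not tested. Depth limits Trim30b and Trim30c, at 0 to 5 counts in each Bahd1-KO library.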
